A study of Mus musculus with 10 samples.

Results

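The genes described here are 32 genes of glucose use and of the response to low oxygen, taken by symbol from a list: carriers of glucose and lactate, the enzymes of glycolysis with their tissue forms, and targets of the hypoxia factor. All 32 were found among the 49315 genes counted in every library. RNA was sequenced from cells labelled as microglia, the resident macrophages of the brain, of wild type C57BL/6 mice. The cells were sorted by FACS into a subset with surface CD11c (CD11c+) and a subset without it (CD11c-), at postnatal day 5 (P5) and at 9 months of age. The sorted fractions also held transcripts that mark other cell types, in amounts given below. Each subset had 3 libraries at P5 and 2 at 9 months. No treatment and no engineered allele is named for any group. The SMART-Seq v4 kit for small inputs is named for the 9-month libraries alone, so age and kit cannot be told apart, and no level was tested between ages. Whether replicates were separate animals is not said in the labels, so a p-value here reflects sample-to-sample spread that could be technical.

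Glycolysis splits glucose into pyruvate in the cytosol and yields ATP without oxygen. Lactate dehydrogenase can then turn pyruvate into lactate, which leaves the cell through monocarboxylate carriers, or pyruvate can enter the mitochondria. When oxygen is low the factor HIF-1 is no longer degraded, and it raises the transcription of many glycolytic genes. In macrophages and neutrophils, activation is known to go with a shift towards glycolysis, and neutrophils rely on it for most of their ATP.

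Levels are given in CPM, read counts relative to the scaled total of their library, with the scaling done within each age. Library totals were 11892082 to 25483573 counts, apart from P5 CD11c+ replicate 2 with 2619610. That library stood apart: its log levels correlated with those of the other P5 libraries at r = 0.721 to 0.782, against 0.951 to 0.993 among the others. It held 23033 genes of at least 1 CPM, while the other 9 libraries held 12762 to 14735. Itgax, which encodes CD11c, was at 232, 47.5 and 138 CPM in P5 CD11c+ replicates 1 to 3 and at 30.6, 69.5 and 35.8 CPM in the CD11c- libraries, so the library with few counts lay below 1 library of the other subset. At 9 months Itgax was at 24.8 and 18.02 CPM in CD11c+ and at 6.22 and 3.89 CPM in CD11c- libraries, without overlap. The edgeR fits of P5 and of the difference between ages were therefore also run without P5 CD11c+ replicate 2. DESeq2, limma-voom, the other alternative fits, the counts of members without overlap, the shares and the marker sums kept that library. Mitochondrially encoded mRNA made up 0.771% to 2.79% of counts in P5 CD11c+ and 7.15% to 28.0% in P5 CD11c- libraries. A fit without the mitochondrially encoded genes also called 0 members at P5, with a median log2 fold change of -0.11 against -0.12.

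At 9 months 18 of the 32 members were lower in the CD11c+ than in the CD11c- sorted fraction and 4, among them tissue forms of the same enzymes, were higher (edgeR quasi-likelihood test, Benjamini-Hochberg adjusted p below 0.05). Among all genes tested at this age 18.2% were called lower and 14.8% higher. The median log2 fold change of the members was -0.86, against 0.02 over all genes. With this scaling, which takes most genes as unchanged, the 4 higher members were Slc16a1, Pfkl, Pfkfb3 and Ldhb. At P5 no member passed, with 0.299% of all genes called in either direction; unadjusted, 1 member had p under 0.05 (Ldhb, lower), and DESeq2 and limma-voom also called 0. Without CD11c+ replicate 2, Ldhb alone was called at P5, as lower, when 4.42% of genes were called lower and 5.06% higher.

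**Figure D1:**
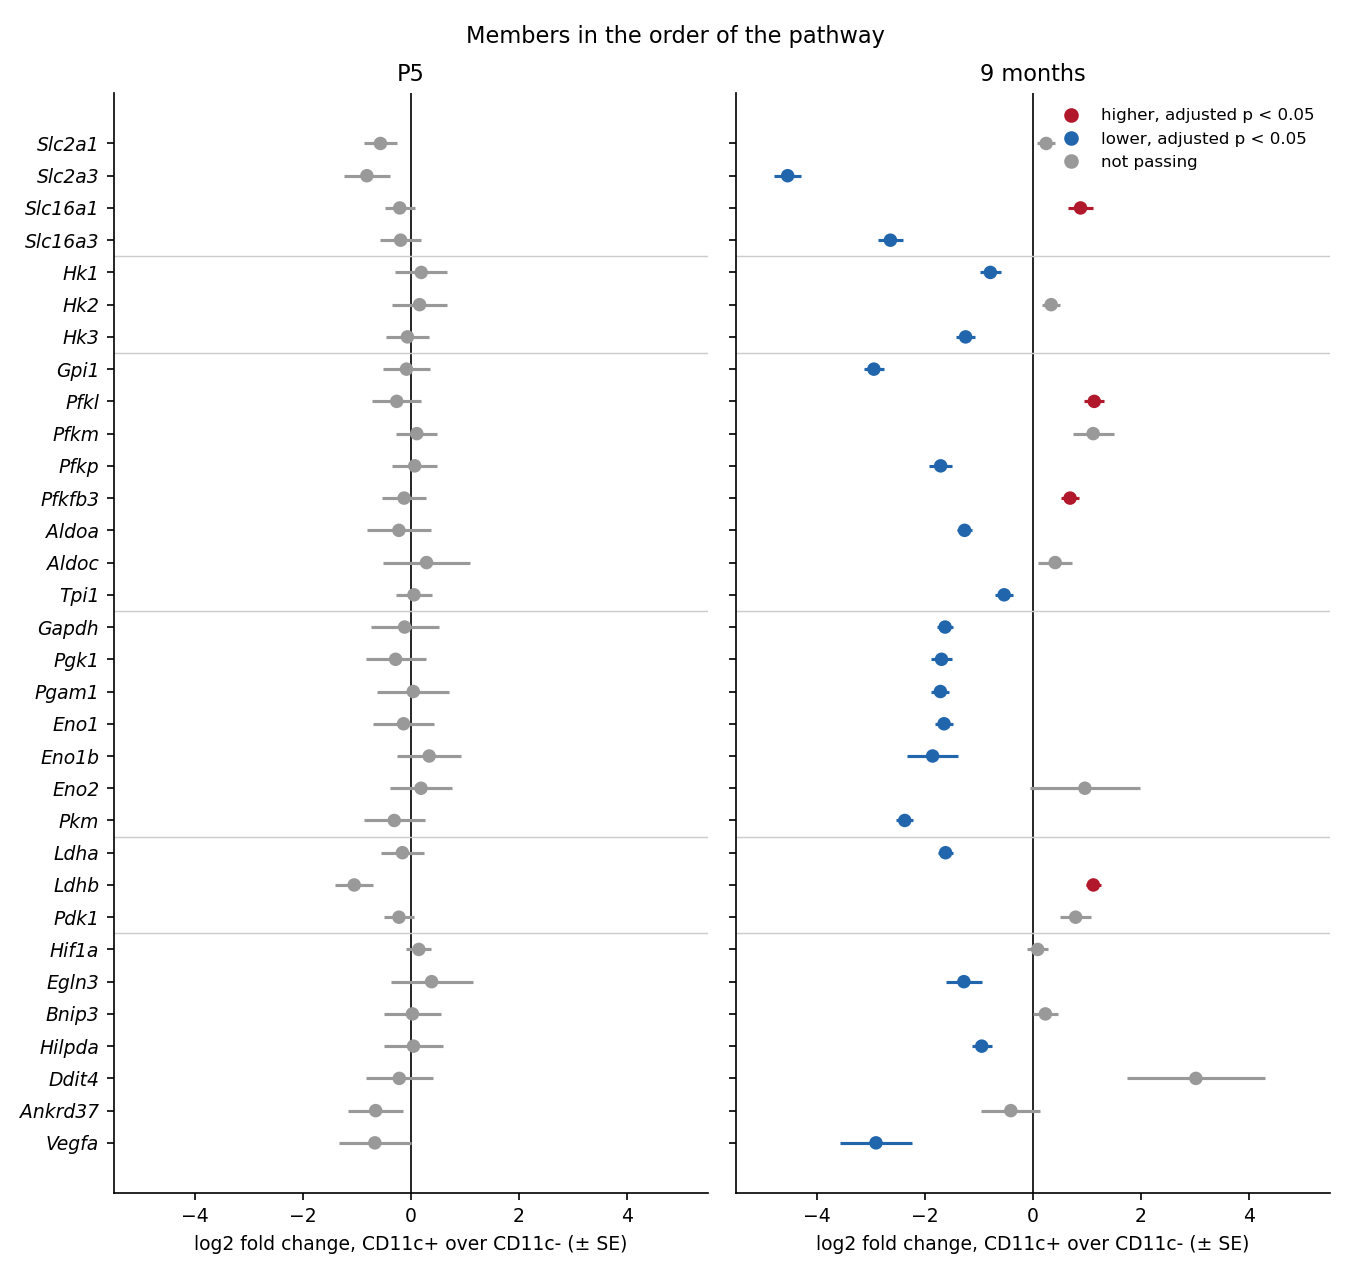
Log2 fold change of each of the 32 members, CD11c+ over CD11c-, with its standard error (x axis), in the order of the pathway (y axis), at P5 and at 9 months; colours mark an edgeR adjusted p below 0.05. At 9 months 18 members lie to the left and 4 to the right in colour, and at P5 all are grey. With scaling on microglia genes, not drawn here, none of the 4 on the right is called higher. Under it only Pfkfb3 is called lower, and Pfkl and Ldhb lie within their standard error of 0.

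These 9-month differences came with a difference in the markers of other blood cells. The summed level of 20 neutrophil markers was 2011 to 2946 CPM in CD11c+ and 159206 to 242815 CPM in CD11c- libraries, and 19 of the 20 were lower in CD11c+. In CD11c- replicates 1 and 2, those 20 genes took 14.8% and 20.0% of all counts. The 12 monocyte markers summed to 577 to 711 CPM in CD11c+ and 13129 to 17661 CPM in CD11c-, and all 12 were lower in CD11c+. Chil3, which is in both the neutrophil and the monocyte list, was at 9144 and 12822.5 CPM in CD11c- replicates 1 and 2. It made up most of the monocyte sum there, so the monocyte sum is not separate from the neutrophil sum. No neutrophil or monocyte marker was at 0 in either group at 9 months. The 12 microglia markers summed to 41074 to 46861 CPM in CD11c+ and 15426 to 15485 CPM in CD11c-, and all 12 were higher in CD11c+. The 15 markers of border-associated macrophages summed to 1779 to 1935 CPM in CD11c+ and 667 to 696 CPM in CD11c-, with 14 higher and 1 lower in CD11c+. In bulk RNA a change in the share of a cell type and a change in RNA per cell cannot be told apart, and the part of these cells in the glycolytic differences was not tested.

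The scaling also sets the direction of some calls at 9 months. With library scaling on microglia genes, the median of all genes moved to -1.13 at 9 months and to 0.93 at P5. Under that scaling 23 members were lower and 0 higher at 9 months, when 53.6% of all genes were called lower. The 4 members that were higher with the usual scaling all turned below 0. Their log2 fold changes (± SE) were -0.27 ± 0.24 for Slc16a1, -0.02 ± 0.18 for Pfkl, -0.47 ± 0.16 for Pfkfb3 and -0.03 ± 0.14 for Ldhb. Of these, only Pfkfb3 passed as lower (edgeR adjusted p = 0.0426). In a fit of all 10 libraries, whose shared spread includes the P5 library that stood apart, 3 members were lower and 0 higher at 9 months (Slc2a3, Slc16a3 and Gpi1), when 4.49% and 1.43% of genes were called.

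**Figure D2:**
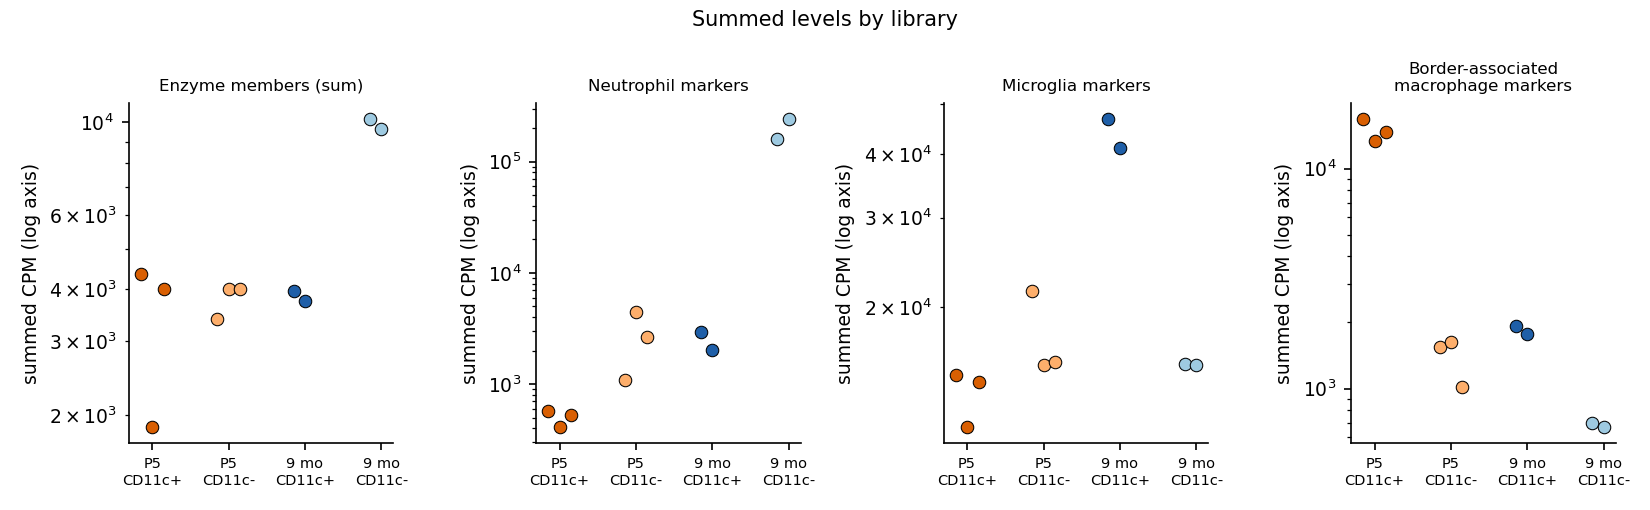
Summed CPM (log axis) of the 21 enzyme and kinase members, of the neutrophil, microglia and border-associated macrophage marker lists, 1 point per library in each of the 4 groups; the scaling was done within each age. In the 9-month CD11c- libraries the enzymes sum to 9641 and 10200 CPM and the neutrophil markers lie at 159206 and 242815 CPM.

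Summed over the 21 enzymes and kinases, glycolytic transcripts held 3949 and 3747 CPM in 9-month CD11c+ samples, against 10199.7 and 9641 CPM in CD11c- samples. At P5 the sums were 4342, 1871 and 3994 CPM in CD11c+ and 3398, 3995 and 3998 CPM in CD11c-, and the groups overlapped. The low P5 value was that of CD11c+ replicate 2. By level per kilobase of gene length, Gapdh led in 3 of the 4 groups, at 120 CPM per kilobase in P5 CD11c+, 130 in P5 CD11c- and 461 in 9-month CD11c- libraries. In the 9-month CD11c+ group Ldhb led at 310 CPM per kilobase, ahead of Gapdh at 150 and Aldoa at 104.

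Glucose enters these cells through carriers of the SLC2A family, of which Slc2a1 encodes GLUT1 and Slc2a3 the high-affinity GLUT3. Slc2a3 (deposited coordinates chr6:122727809-122801640, minus strand) was lower in CD11c+ at 9 months. It was at 21.9 and 14.1 CPM in CD11c+ and at 417 and 418 CPM in CD11c- libraries. The groups lay far apart, with a log2 fold change of -4.53 ± 0.25 (SE here and below; edgeR adjusted p = 5.25e-05), which is 23.2-fold. At P5 Slc2a3 was at 22.9, 19.9 and 18.1 CPM in CD11c+ and at 18.3, 57.3 and 31.6 CPM in CD11c- libraries. The P5 groups overlapped, since CD11c- replicate 1 was at the CD11c+ level, and the log2 fold change of -0.81 ± 0.42 did not pass (edgeR adjusted p = 0.794). Slc2a3 was the one member whose fold change differed between the ages in edgeR, by -3.54 ± 0.65 on the log2 scale (edgeR adjusted p = 0.0274), when 1.56% of genes had a lower and 0.302% a higher fold change at 9 months. That call held without P5 CD11c+ replicate 2 or P5 CD11c- replicate 2, and was lost without any 1 of the other 8 libraries, with edgeR adjusted p from 0.0502 to 0.401 and differences of -3.18 to -3.72. DESeq2 called 8 members for this difference, Slc2a3 among them, when it called 12.3% of all genes. Among the members limma-voom called Slc2a3 alone, when it called 2.69% of all genes. With the replicate block the Slc2a3 call was lost (edgeR adjusted p = 0.113). The kit used at 9 months cannot be told apart from age here.

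Slc2a1 did not pass at either age. It was at 90.8 and 83.8 CPM in CD11c+ and at 77.8 and 69.0 CPM in CD11c- libraries at 9 months, a log2 fold change of 0.25 ± 0.16 (edgeR adjusted p = 0.282). At P5 it was at 36.7, 21.4 and 37.4 CPM in CD11c+ and at 36.9, 57.5 and 47.8 CPM in CD11c-, a log2 fold change of -0.56 ± 0.30 (edgeR adjusted p = 0.8). Groups did not overlap at 9 months, where 36.1% of all genes were higher in every CD11c+ library, and overlapped at P5. Scaled to microglia genes, Slc2a1 turned to -0.91 at 9 months and to 0.17 at P5. Of the counts per kilobase of the 2 carriers, Slc2a1 held 89.6% and 92.5% in 9-month CD11c+ samples, against 27.8% and 25.4% in CD11c- samples. At P5 it held 68.9% to 81.0% in CD11c+ and 67.5% to 80.7% in CD11c-, with full overlap. A share within a library does not depend on the scaling between libraries.

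The share of each lactate carrier did not overlap between the subsets at 9 months. The same held for every family share compared at that age other than those of Hk1, Eno1 and Eno1b. With 2 libraries a group no share could pass, as the smallest exact permutation p is 0.333. Slc16a3 encodes MCT4, the carrier known from cells that export lactate, and Slc16a1 encodes MCT1, which carries lactate and pyruvate both ways. Slc16a3 (chr11:120948480-120960868, plus strand) was at 37.5 and 27.7 CPM in CD11c+ and at 234 and 170.4 CPM in CD11c- libraries. It was lower in both CD11c+ libraries, by a log2 fold change of -2.63 ± 0.24 (edgeR adjusted p = 0.000357). Slc16a1 (chr3:104638668-104658462, plus strand) was at 22.4 and 19.7 CPM in CD11c+ and at 10.1 and 12.6 CPM in CD11c-. It was higher in both CD11c+ libraries, by 0.89 ± 0.24 (edgeR adjusted p = 0.0294), and below 0 with scaling on microglia genes. The Slc16a1 call was lost without 9-month CD11c+ replicate 1 (edgeR adjusted p = 0.136) or CD11c- replicate 1 (edgeR adjusted p = 0.0684). Slc16a1 held 41.8% and 46.0% of the pair's counts per kilobase in CD11c+ libraries and 4.95% and 8.17% in CD11c-. At P5 neither passed: Slc16a3 was at 109, 54.5 and 90.2 CPM in CD11c+ and at 61.4, 94.4 and 135 CPM in CD11c-, and Slc16a1 at 18.7, 22.8 and 21.2 CPM in CD11c+ and at 31.9, 22.3 and 17.9 CPM in CD11c-, with overlap in both.

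The HIF-1 core element was looked for in the 250 bases before each RefSeq gene start (GRCm38.p6), as the motifs ACGTG and GCGTG on either strand, where a palindromic CACGTG counts on both strands. A window was found for 30 of the 32 members, all but Slc2a3 and Eno1b. Of those 30, 22 (73.3%) held 1 motif or more and 14 (46.7%) held 2 or more, against 38.6% and 16.7% of the 32851 windows of this length in the table. Targets of the hypoxia factor were part of the list from the start, so this contrast is no independent result about the members. It also sets 1 start per member against all starts in the table, without matching base content. Of the 16 members called lower at 9 months that had a window, 9 held a motif, as did all 4 called higher. A match is a description of the letters, not a bound site. The windows of the lactate carriers are shown because their shares of the pair did not overlap between the 9-month groups; capitals mark the motifs, read 5′ to 3′ on the gene's strand.
Slc16a1, chr3:104638414-104638663, plus strand: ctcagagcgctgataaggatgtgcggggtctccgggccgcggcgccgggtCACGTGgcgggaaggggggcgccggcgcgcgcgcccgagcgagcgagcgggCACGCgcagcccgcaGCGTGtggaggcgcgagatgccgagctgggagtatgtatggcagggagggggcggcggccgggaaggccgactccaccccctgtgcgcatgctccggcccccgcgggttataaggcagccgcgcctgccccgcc
Slc16a3, chr11:120948817-120949066, plus strand: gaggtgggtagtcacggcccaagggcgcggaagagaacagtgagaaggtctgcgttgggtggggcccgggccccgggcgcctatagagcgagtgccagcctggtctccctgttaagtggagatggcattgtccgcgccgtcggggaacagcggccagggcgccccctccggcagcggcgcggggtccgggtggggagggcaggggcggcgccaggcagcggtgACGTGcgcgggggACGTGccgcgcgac
The Slc16a1 window held 4 motif matches and the Slc16a3 window 2. The Slc16a3 window lies inside the deposited span of the gene, as the RefSeq start lies 587 bases from the deposited 5′ end.

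Hexokinases trap glucose as glucose 6-phosphate. Hk1 is the broad form, Hk2 the inducible form that responds to HIF-1 and insulin, and Hk3 the form of myeloid cells. At 9 months Hk3 was at 138 and 107 CPM in CD11c+ and at 309.6 and 269 CPM in CD11c- libraries, and Hk1 was at 32.6 and 26.5 CPM and at 52.9 and 48.9 CPM. Both were lower in every CD11c+ library, with log2 fold changes of -1.24 ± 0.18 for Hk3 (edgeR adjusted p = 0.00265) and of -0.78 ± 0.19 for Hk1 (edgeR adjusted p = 0.0211). The Hk1 call was lost without CD11c+ replicate 2 (edgeR adjusted p = 0.141) or CD11c- replicate 1 (edgeR adjusted p = 0.0533). Hk2 was at 149.7 and 124 CPM in CD11c+ and at 105 and 111 CPM in CD11c-, a log2 fold change of 0.34 ± 0.16 (edgeR adjusted p = 0.157). It lay above CD11c- in both libraries with the usual scaling and turned to -0.82 with scaling on microglia genes.

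At P5 the sign of the Hk2 difference depended on 1 library. Hk2 was at 219, 737 and 246 CPM in CD11c+ and at 340.1, 329 and 405 CPM in CD11c- libraries. The high value was CD11c+ replicate 2, and the other 2 CD11c+ libraries lay below all CD11c- libraries. The log2 fold change was 0.16 ± 0.51 (edgeR adjusted p = 0.953) with that library and -0.59 ± 0.17 (edgeR adjusted p = 0.0726) without it. Hk3 was at 223, 88.7 and 217 CPM in CD11c+ and at 226, 158 and 169.7 CPM in CD11c- at P5, and Hk1 at 29.6, 8.47 and 25.1 CPM and at 12.3, 20.3 and 23.6 CPM, with overlap in both. Their log2 fold changes were -0.06 ± 0.40 for Hk3 (edgeR adjusted p = 0.978) and 0.19 ± 0.49 for Hk1 (edgeR adjusted p = 0.939). Of the hexokinase counts per kilobase, Hk2 held 36.5%, 83.1% and 39.9% in P5 CD11c+ and 47.5%, 54.9% and 58.1% in P5 CD11c- libraries. At 9 months it held 37.8% and 39.2% in CD11c+ against 16.2% and 19.1% in CD11c-, and Hk3 held 56.4% and 55.0% against 78.0% and 75.0%. Hk1 held 5.75% to 5.88% in all 4 libraries of 9 months.

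**Figure D3:**
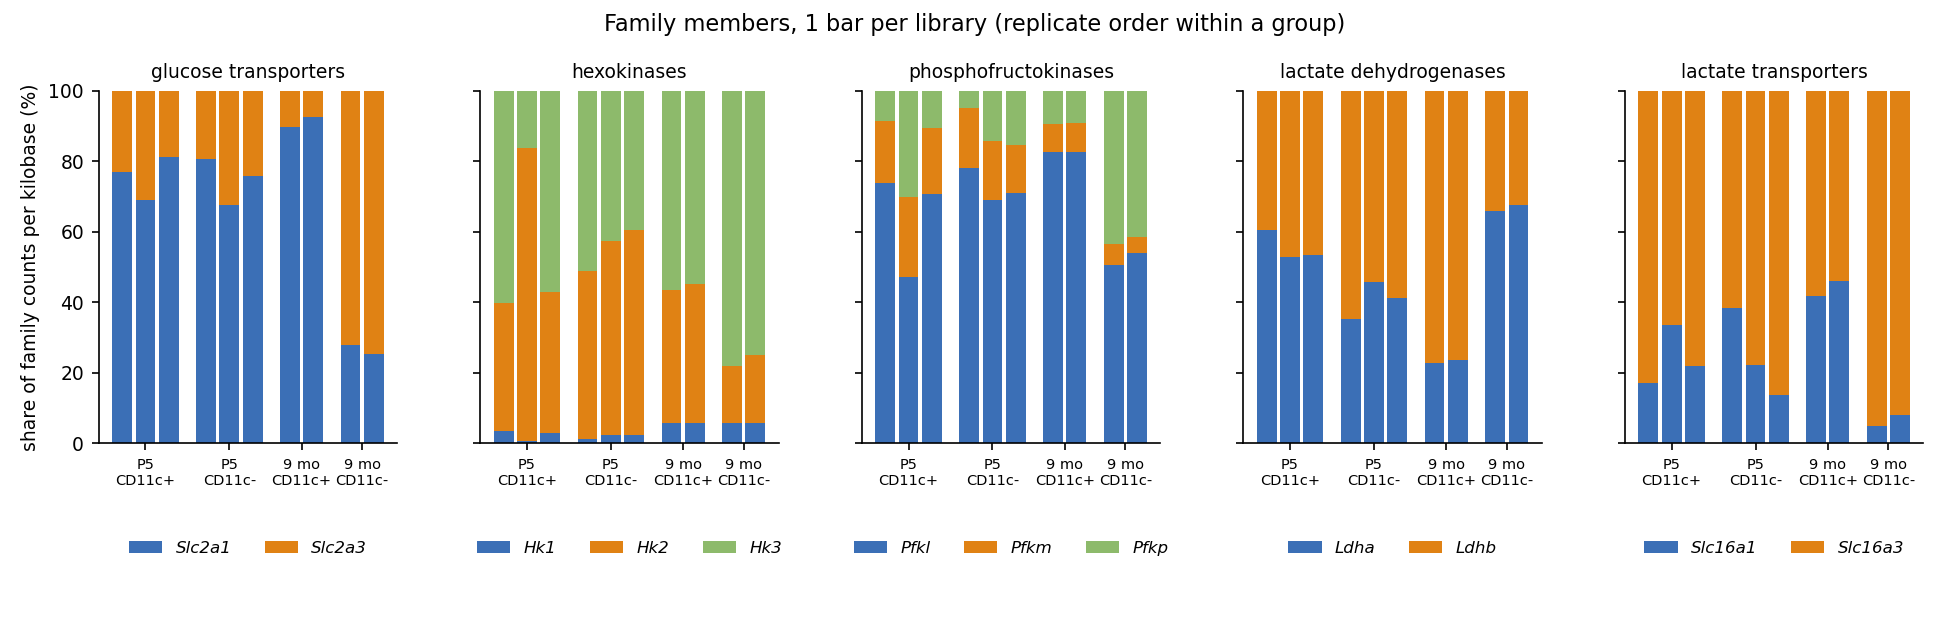
Share of each form in its family's counts per kilobase (y axis, percent), 1 stacked bar per library in replicate order, for glucose carriers, hexokinases, phosphofructokinases, lactate dehydrogenases and lactate carriers. In the 9-month pairs of bars the shares of Slc2a1, Hk2, Pfkl, Ldhb and Slc16a1 stand higher in CD11c+ than in CD11c-.

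In the upper part of glycolysis, Gpi1 (glucose 6-phosphate isomerase, chr7:34201330-34230336, minus strand) was lower in CD11c+ at 9 months. It was at 158 and 127 CPM in CD11c+ and at 1167 and 1015 CPM in CD11c- libraries. The log2 fold change was -2.94 ± 0.18 (edgeR adjusted p = 6.79e-05). At P5 Gpi1 was at 405, 136 and 361 CPM in CD11c+ and at 256, 360.1 and 341 CPM in CD11c-, and the groups overlapped. Aldoa, the aldolase of muscle and most cells, was at 388 and 395 CPM against 914 and 962 CPM at 9 months, lower at a log2 fold change of -1.26 ± 0.13 (edgeR adjusted p = 0.000753). Tpi1, triose phosphate isomerase, was at 129 and 108 CPM against 178 and 164 CPM, lower at a log2 fold change of -0.53 ± 0.16 (edgeR adjusted p = 0.0445). The Tpi1 call was lost without any 1 of the 4 libraries, with edgeR adjusted p from 0.0657 to 0.34. Aldoc, the aldolase best known from brain and astrocytes, was at 6.58 and 8.18 CPM against 5.51 and 5.54 CPM, a log2 fold change of 0.42 ± 0.31 that did not pass (edgeR adjusted p = 0.357). A list of 9 astrocyte markers summed to 163 to 176 CPM in CD11c+ and 51.8 to 58.9 CPM in CD11c- at 9 months. Of 8 tested, 1 was called higher, and their part was not tested. At P5 the 2 aldolases and Tpi1 overlapped between groups, with Aldoa at 416, 79.5 and 413 CPM in CD11c+ and at 311, 380.4 and 370.4 CPM in CD11c- libraries. Tpi1 ranged from 87.3 to 194 CPM in P5 CD11c+ and from 141 to 145 CPM in P5 CD11c-, and Aldoc from 1.71 to 4.79 CPM and from 1.06 to 4.10 CPM.

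Phosphofructokinase commits sugar to glycolysis, and its 3 forms are Pfkl (liver), Pfkm (muscle) and Pfkp (platelet). Pfkl (chr10:77986947-78010083, minus strand) was at 115 and 89.0 CPM in CD11c+ and at 46.4 CPM in both CD11c- libraries at 9 months. Pfkp (chr13:6579768-6648777, minus strand) was at 28.4 and 21.03 CPM in CD11c+ and at 84.9 and 76.2 CPM in CD11c-. Pfkl was higher in both CD11c+ libraries by 1.14 ± 0.19 (edgeR adjusted p = 0.00441), and Pfkp was lower in both at -1.70 ± 0.21 (edgeR adjusted p = 0.00138), while Pfkl was at -0.02 with scaling on microglia genes. Pfkm was at 7.46 and 6.09 CPM against 3.69 and 2.52 CPM, a log2 fold change of 1.12 ± 0.38 that did not pass (edgeR adjusted p = 0.061) and that passed without CD11c- replicate 1 (edgeR adjusted p = 0.032). Pfkp held 9.51% and 9.12% of the family's counts per kilobase in CD11c+ and 43.4% and 41.6% in CD11c-, and Pfkl 82.6% and 82.5% against 50.7% and 54.1%. Reads over Pfkm and Pfkp are uncertain, since Senp1 overlaps the first and Pitrm1 the second on the other strand and the strand setting of the counting is not given in the sources used here.

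At P5 none of the 3 forms passed. Pfkl was at 76.8, 21.7 and 67.7 CPM in CD11c+ and at 77.0, 58.3 and 65.6 CPM in CD11c- libraries (-0.26 ± 0.45, edgeR adjusted p = 0.904). Pfkp was at 19.3, 29.8 and 21.7 CPM and at 10.7, 25.9 and 30.5 CPM (0.07 ± 0.42, edgeR adjusted p = 0.976). Pfkm was at 12.3, 6.99 and 12.02 CPM and at 11.3, 9.43 and 8.505 CPM (0.11 ± 0.38, edgeR adjusted p = 0.959). All 3 overlapped between groups. Pfkfb3 makes fructose 2,6-bisphosphate, the activator of phosphofructokinase. It was at 311 and 246 CPM in CD11c+ and at 174 and 171 CPM in CD11c- libraries at 9 months, higher by 0.69 ± 0.16 (edgeR adjusted p = 0.0186) and lower with scaling on microglia genes at -0.47 (edgeR adjusted p = 0.0426). Its call was lost without CD11c+ replicate 1 (edgeR adjusted p = 0.0802). At P5 Pfkfb3 was at 144, 50.1 and 122 CPM in CD11c+ and at 109.6, 134 and 102 CPM in CD11c-, with overlap. The windows before the starts of Pfkl and Pfkp, whose shares did not overlap at 9 months, held 1 and 3 motif matches, in capitals, and that of Pfkl lies inside its deposited span.
Pfkl, chr10:78009808-78010057, minus strand: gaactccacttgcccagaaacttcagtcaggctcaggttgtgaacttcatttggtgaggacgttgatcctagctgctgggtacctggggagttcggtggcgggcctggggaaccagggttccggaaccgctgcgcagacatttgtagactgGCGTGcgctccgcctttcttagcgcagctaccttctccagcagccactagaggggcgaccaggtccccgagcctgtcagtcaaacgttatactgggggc
Pfkp, chr13:6648772-6649021, minus strand: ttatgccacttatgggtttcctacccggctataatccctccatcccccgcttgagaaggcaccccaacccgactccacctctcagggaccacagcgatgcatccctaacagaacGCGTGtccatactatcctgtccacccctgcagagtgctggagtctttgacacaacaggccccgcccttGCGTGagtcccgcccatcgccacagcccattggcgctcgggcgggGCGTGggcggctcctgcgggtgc

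All but 1 of the 7 members of lower glycolysis were lower in CD11c+ libraries at 9 months, with log2 fold changes of -1.62 to -2.37. Gapdh, which oxidises the triose phosphate, was at 587 and 651 CPM in CD11c+ and at 1752 and 2057 CPM in CD11c- libraries (-1.62 ± 0.15, edgeR adjusted p = 0.000448). Pkm, the pyruvate kinase of most cells, was at 381 and 362 CPM against 2073 and 1762 CPM (-2.37 ± 0.15, edgeR adjusted p = 8.76e-05). Eno1, the broad enolase, was at 550.1 and 480.4 CPM against 1773 and 1438 CPM (-1.64 ± 0.17, edgeR adjusted p = 0.000602). In each case both CD11c+ libraries lay below both CD11c- libraries, as 33.8% of all genes tested did. The 2 kinase and mutase genes between them were alike: Pgk1 was at 47.7 and 36.9 CPM against 151 and 122 CPM (-1.69 ± 0.20, edgeR adjusted p = 0.00125). Pgam1 was at 54.7 and 53.3 CPM against 193 and 159.6 CPM (-1.71 ± 0.17, edgeR adjusted p = 0.000529). Eno1b was at 1.57 and 2.53 CPM against 5.11 and 9.71 CPM (-1.85 ± 0.48, edgeR adjusted p = 0.025), and is uncertain because its sequence is nearly that of Eno1. The Eno1b call was lost without CD11c+ replicate 1 (edgeR adjusted p = 0.0661) or CD11c- replicate 2 (edgeR adjusted p = 0.0693). Eno2, the neuronal enolase, had 53 counts in the CD11c+ and 21 in the CD11c- group (0.97 ± 1.02, edgeR adjusted p = 0.509). The neutrophil marker sum was higher in the same CD11c- libraries, as given above, and its part was not tested.

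At P5 no lower glycolysis gene passed, and 1 library had the lowest level of 5 of them. Gapdh was at 700.1, 118 and 671 CPM in CD11c+ and at 434, 619 and 563 CPM in CD11c- libraries, and Pkm was at 733, 147 and 606 CPM and at 528, 641 and 672 CPM. In both, CD11c+ replicate 2 was the lowest of the 6 libraries and another CD11c+ library the highest. The same was so for Eno1 (430.1, 93.5 and 371 CPM against 242, 366 and 376 CPM), Pgk1 (169, 33.9 and 146 CPM against 117, 163 and 147 CPM) and Pgam1 (70.8, 8.10 and 57.7 CPM against 35.2, 54.2 and 44.9 CPM). With this library the median log2 fold change of the 7 lower glycolysis members was -0.12, and without it 0.32, with none passing in either fit. Eno1b ranged from 2.58 to 3.61 CPM in P5 CD11c+ and from 1.43 to 3.22 CPM in P5 CD11c-, and Eno2 from 1.28 to 1.83 CPM and from 0.992 to 1.81 CPM. Near-identical copies, here transcripts of other genes with at least 95% identity over at least 300 bases, were found for 11 members, 92 in all, and can split or share reads. Copies of Gapdh elsewhere in the genome held 39.0% of the summed counts of Gapdh and its copies in that library and 2.46% to 3.88% in the other 9.

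**Figure D4:**
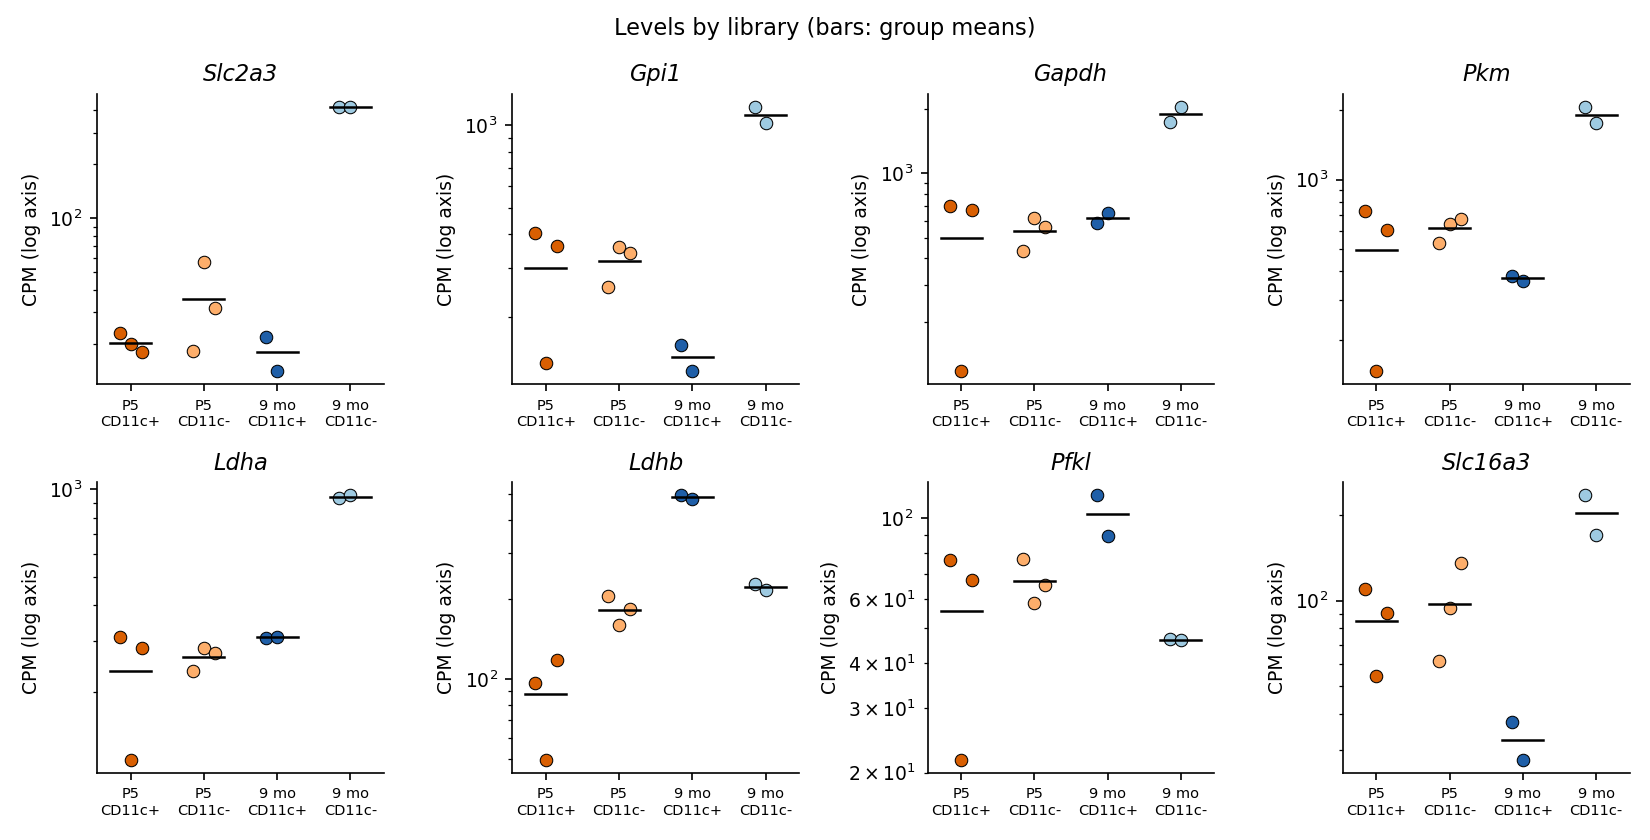
CPM (log axis, scaled within each age) of 8 members, 1 point per library in each of the 4 groups, with a bar at the group mean. In Slc2a3, Gpi1, Gapdh, Pkm, Ldha and Slc16a3 the 9-month CD11c- points stand above all others, in Ldhb and Pfkl the 9-month CD11c+ points do, and the lowest P5 CD11c+ point of Gpi1, Gapdh, Pkm, Ldha, Ldhb and Pfkl is replicate 2.

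The shares of the 2 lactate dehydrogenase subunits did not overlap between the subsets at either age, and lay the other way round at each. Ldha encodes the subunit known to favour the making of lactate, and Ldhb the subunit known to favour its use. Ldha (chr7:46841475-46855627, plus strand) was at 308 and 309.9 CPM in CD11c+ and at 932 and 955 CPM in CD11c- libraries. Ldhb (chr6:142490249-142507957, minus strand) was at 495 and 478 CPM in CD11c+ and at 229 and 218 CPM in CD11c-. Neither pair of groups overlapped. Ldha was lower at a log2 fold change of -1.61 ± 0.13 (edgeR adjusted p = 0.000267) and Ldhb was higher by 1.12 ± 0.14 (edgeR adjusted p = 0.00129), which turned to -0.03 with scaling on microglia genes. Ldhb held 77.2% and 76.5% of their counts per kilobase in CD11c+ and 34.1% and 32.5% in CD11c-. Per kilobase there were thus 3.25 to 3.39 Ldhb counts for each Ldha count in CD11c+ libraries, and 0.481 to 0.517 in CD11c-.

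At P5 Ldhb lay the other way. It was at 96.5, 49.7 and 118 CPM in CD11c+ and at 206, 159.7 and 184 CPM in CD11c- libraries. All 3 CD11c+ libraries were below all 3 CD11c- libraries, as in 8.68% of genes tested. The log2 fold change of -1.05 ± 0.36 did not pass (edgeR adjusted p = 0.529), and without CD11c+ replicate 2 it was -0.74 ± 0.18 and passed (edgeR adjusted p = 0.0442). Ldha was at 309.7, 117 and 284 CPM in CD11c+ and at 237, 284 and 272 CPM in CD11c-, and the groups overlapped (-0.16 ± 0.40, edgeR adjusted p = 0.938). Ldhb held 39.6%, 47.2% and 46.7% of the counts per kilobase of the pair in CD11c+ and 64.7%, 54.2% and 58.7% in CD11c-. The fold change of Ldhb differed between ages by 2.33 ± 0.62 on the log2 scale, which did not pass in edgeR (edgeR adjusted p = 0.0952). It passed in DESeq2 (2.14, DESeq2 adjusted p = 0.000206) and in edgeR without P5 CD11c+ replicate 2 (1.98 ± 0.27, edgeR adjusted p = 0.00108). It did not pass in limma-voom (2.44, limma-voom adjusted p = 0.0626) or with the replicate block (2.47, edgeR adjusted p = 0.16). With scaling on microglia genes the difference between ages was 0.28 ± 0.30 (edgeR adjusted p = 0.455). No share could pass an exact 2-sided permutation test, whose smallest p is 0.1 for 3 against 3 and 0.333 for 2 against 2 libraries; 13 shares were compared at each age. The windows before the 2 starts held 5 motif matches in Ldha and 1 in Ldhb, in capitals, and that of Ldha lies inside its deposited span, 4329 bases from the deposited 5′ end.
Ldha, chr7:46845554-46845803, plus strand: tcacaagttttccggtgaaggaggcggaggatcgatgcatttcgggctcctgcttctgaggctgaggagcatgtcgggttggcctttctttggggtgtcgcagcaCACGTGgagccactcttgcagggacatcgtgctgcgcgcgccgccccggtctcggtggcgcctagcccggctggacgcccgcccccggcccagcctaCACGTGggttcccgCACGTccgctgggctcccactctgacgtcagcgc
Ldhb, chr6:142507958-142508207, minus strand: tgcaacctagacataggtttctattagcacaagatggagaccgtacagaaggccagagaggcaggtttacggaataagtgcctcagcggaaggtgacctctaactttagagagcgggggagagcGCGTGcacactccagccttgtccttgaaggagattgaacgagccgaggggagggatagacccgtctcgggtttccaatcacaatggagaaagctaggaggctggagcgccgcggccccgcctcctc

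Pdk1, the kinase that keeps pyruvate out of the mitochondria, was at 60.1 and 113 CPM in CD11c+ and at 51.1 and 48.7 CPM in CD11c- libraries at 9 months. Both CD11c+ libraries were above both others, but they differed from each other, and the log2 fold change of 0.80 ± 0.29 did not pass (edgeR adjusted p = 0.0794). It passed without CD11c+ replicate 1 (1.23, edgeR adjusted p = 5.02e-05), and with scaling on microglia genes it was -0.35. At P5 Pdk1 was at 87.1, 49.0 and 80.9 CPM in CD11c+ and at 96.7, 82.5 and 74.5 CPM in CD11c-, with overlap.

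Among the 7 members of the hypoxia response, 3 were lower in CD11c+ libraries at 9 months and 4 did not pass. Hif1a, which encodes the regulated subunit of HIF-1, was at 128 and 172 CPM in CD11c+ and at 131 and 150.5 CPM in CD11c-. The groups overlapped, with a log2 fold change of 0.09 ± 0.19 (edgeR adjusted p = 0.744), and -1.06 with scaling on microglia genes. HIF-1 is controlled mainly at the protein level, which was not measured. At P5 Hif1a was at 143, 129.6 and 139.5 CPM in CD11c+ and at 118, 149 and 105 CPM in CD11c- (0.15 ± 0.23, edgeR adjusted p = 0.895). Vegfa, the angiogenic growth factor, was at 0.314 and 1.04 CPM in CD11c+ and at 3.999 and 6.14 CPM in CD11c- at 9 months. It was lower in both CD11c+ libraries, which had 9 and 28 counts (-2.90 ± 0.67, edgeR adjusted p = 0.0166). Egln3, an oxygen-sensing prolyl hydroxylase, was at 3.73 and 3.27 CPM against 7.78 and 9.16 CPM (-1.27 ± 0.33, edgeR adjusted p = 0.0249), a call lost without CD11c+ replicate 1 (edgeR adjusted p = 0.0917) or replicate 2 (edgeR adjusted p = 0.139). Hilpda, an inhibitor of lipid breakdown on lipid droplets, was at 21.9 and 22.7 CPM against 40.5 and 45.3 CPM (-0.94 ± 0.19, edgeR adjusted p = 0.00909).

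The remaining targets did not pass at 9 months. Bnip3, a mitophagy receptor, was at 43.3 and 46.9 CPM in CD11c+ and at 30.5 and 46.1 CPM in CD11c-, a log2 fold change of 0.24 ± 0.24 (edgeR adjusted p = 0.486). Ddit4 (REDD1, an inhibitor of mTORC1) had 50 and 35 counts in CD11c+ replicates 1 and 2, against 0 and 7 in CD11c-, and did not pass (edgeR adjusted p = 0.115). Leaving out CD11c- replicate 2, which holds all 7 counts of its group, Ddit4 passed (edgeR adjusted p = 0.00957). Ankrd37 was at 1.74 and 3.31 CPM in CD11c+ and at 2.31 and 4.39 CPM in CD11c- (-0.40 ± 0.55, edgeR adjusted p = 0.613). At P5 Ankrd37 was below the CD11c- libraries in all 3 CD11c+ libraries, at 3.91, 2.58 and 3.62 CPM against 4.73, 5.95 and 5.33 CPM, without passing (-0.65 ± 0.51, edgeR adjusted p = 0.801). Its reads are uncertain, since Ufsp2, which overlaps it on the other strand, had more counts than Ankrd37 itself. The other targets overlapped between the P5 groups. Bnip3 ranged from 11.04 to 52.2 CPM in CD11c+ and from 33.5 to 44.04 CPM in CD11c-, and Egln3 from 1.47 to 7.58 CPM and from 1.95 to 5.46 CPM. Hilpda ranged from 3.91 to 10.7 CPM in CD11c+ and from 5.54 to 9.01 CPM in CD11c-, Ddit4 from 3.31 to 7.09 CPM and from 2.98 to 8.35 CPM, and Vegfa from 2.26 to 3.31 CPM and from 1.93 to 7.36 CPM.

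Over all members, no gene was higher in every CD11c+ library at P5, where 8.39% of genes tested were, and 2 (Ldhb and Ankrd37) were lower in every one. The absence of higher members depends on P5 CD11c+ replicate 2. For Gapdh, Gpi1, Aldoa, Tpi1, Pgam1, Bnip3, Hk1 and Pfkm it lay below all P5 CD11c- libraries. The other CD11c+ libraries lay above them all in these genes, and Hk2 showed the reverse. At 9 months 11 members were higher in both CD11c+ libraries and 18 were lower in both, the same 18 that were called lower. With 2 libraries in a group such separation is common, as the shares of 36.1% and 33.8% of all genes given above show. Hif1a, Bnip3 and Ankrd37 were the 3 members that overlapped at 9 months. Tested without P5 CD11c+ replicate 2, the fold changes of 15 members were lower and of 3 (Hk2, Pfkl and Ldhb) higher at 9 months than at P5, when 10.3% and 8.76% of genes were. Among these were Gpi1 (-3.12 ± 0.29, edgeR adjusted p = 0.000248), Pkm (-2.41 ± 0.28, edgeR adjusted p = 0.000552) and Ldha (-1.70 ± 0.25, edgeR adjusted p = 0.00159).

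Other genes of the same pathways, from a list of 41 on glycolysis, its branches and pyruvate, showed calls in both directions at 9 months. Of 34 tested, 14 were lower and 7 higher in CD11c+, with a median of -0.33, when 18.2% of all genes were called lower and 14.8% higher. In the fit of all 10 libraries 5 of 36 were lower and 1 higher. The lower ones included G6pdx, which opens the pentose phosphate pathway, at 122 and 115 CPM in CD11c+ against 657 and 563 CPM in CD11c- (-2.36 ± 0.15, edgeR adjusted p = 9.23e-05). Taldo1, transaldolase of the same pathway, was at 223 and 176 CPM against 1246 and 1141 CPM (-2.58 ± 0.17, edgeR adjusted p = 0.000102). Mpc2, a subunit of the mitochondrial pyruvate carrier, was at 41.5 and 38.9 CPM against 176 and 198 CPM (-2.22 ± 0.16, edgeR adjusted p = 0.000141). Slc2a5, the fructose carrier GLUT5 and a microglia marker, was higher, at 789 and 798 CPM against 281 and 227 CPM (1.64 ± 0.16, edgeR adjusted p = 0.000511). At P5 none of 33 tested passed in edgeR (3 at an unadjusted p under 0.05; DESeq2 called 2 and limma-voom 0). For the difference between ages, Slc2a5 was higher (3.35 ± 0.65, edgeR adjusted p = 0.0335) and Adpgk, the ADP-dependent glucokinase, was lower (-4.50 ± 0.90, edgeR adjusted p = 0.0389). With the replicate block both calls were lost (edgeR adjusted p = 0.104 and 0.138). The Slc2a5 call was lost without any 1 of 8 libraries, all but P5 CD11c+ replicates 2 and 3, with edgeR adjusted p from 0.0639 to 0.37, and the Adpgk call without any 1 of 9, all but P5 CD11c+ replicate 2, with edgeR adjusted p from 0.0689 to 0.467. Adpgk also missed without the mitochondrially encoded genes (edgeR adjusted p = 0.0504). Adpgk was at 9.44 and 30.2 CPM in CD11c+ and at 1027 and 889.6 CPM in CD11c- libraries at 9 months.

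Of 37 other hypoxia response genes, 29 were tested at 9 months, of which 8 were lower and 4 higher in CD11c+, with a median of -0.35, against the same shares of 18.2% and 14.8% of all genes. In the fit of all 10 libraries 3 of 34 were lower and 1 higher. P4ha1, a collagen prolyl hydroxylase, was higher, at 306 and 279.6 CPM in CD11c+ against 93.1 and 92.8 CPM in CD11c- (1.65 ± 0.15, edgeR adjusted p = 0.000321). Ero1l, an oxidase of the endoplasmic reticulum, was lower, at 11.1 and 18.7 CPM against 96.7 and 97.5 CPM (-2.70 ± 0.27, edgeR adjusted p = 0.000572). Ndrg1 was at 2.89 and 2.42 CPM against 20.2 and 26.4 CPM (-3.13 ± 0.29, edgeR adjusted p = 0.00042), and Gys1, muscle glycogen synthase, at 13.5 and 11.3 CPM against 56.8 and 47.1 CPM (-2.07 ± 0.21, edgeR adjusted p = 0.000645). In edgeR none of 30 tested passed at P5 (3 at an unadjusted p under 0.05; DESeq2 called 2 and limma-voom 0) and none of 34 for the difference between ages (10 at an unadjusted p under 0.05; DESeq2 called 9 and limma-voom 2). At P5 the markers of border-associated macrophages summed to 13283 to 16834 CPM in CD11c+ and 1019 to 1628 CPM in CD11c- libraries, with 7 of 15 called higher by edgeR. All 15 had an unadjusted edgeR p under 0.05, and their median log2 fold change was 4.99. DESeq2 called 15, limma-voom 10, and edgeR without CD11c+ replicate 2 called 15. Monocyte markers summed to 1306 to 3873 CPM in CD11c+ and 309 to 1068 CPM in CD11c-, without overlap, while their median log2 fold change was -1.23 and edgeR called 0 of 11 tested (7 at an unadjusted p under 0.05; DESeq2 called 4 and limma-voom 1). F13a1 is in both the monocyte and the border-associated macrophage list, so these sums are not separate. Microglia markers summed to 11637 to 14744 CPM in CD11c+ and 15444 to 21538 CPM in CD11c-, also without overlap, and edgeR called 0 of 12 (2 at an unadjusted p under 0.05; DESeq2 called 2 and limma-voom 0). Endothelial markers summed to 67.5 to 176 CPM in CD11c+ and 46.5 to 62.5 CPM in CD11c-, with 1 (Egfl7) called higher. Astrocyte markers summed to 21.5, 134 and 26.3 CPM in CD11c+ replicates 1 to 3 and 34.3 to 43.5 CPM in CD11c-. Neuron markers summed to 6.91, 126 and 9.02 CPM in CD11c+ and 14.5 to 29.1 CPM in CD11c-. Both sums were highest in CD11c+ replicate 2, edgeR called 0 of 7 tested in each list, and their part was not tested. Neutrophil markers summed to 408 to 571 CPM in P5 CD11c+ and 1096 to 4410 CPM in P5 CD11c- libraries, with 0 of 20 called by edgeR (18 at an unadjusted p under 0.05; DESeq2 called 16 and limma-voom 0) and Elane at 0 in CD11c+, and their part in the P5 values was not tested.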

How the data were processed

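RNA of FACS-sorted cells labelled as microglia was sequenced in 10 libraries. The authors deposited whole-number read counts per gene with gene coordinates and lengths. Per the submitters' processing notes, Trimmomatic 0.36, STAR 2.5.2b and Subread 1.5.2 were used; their settings, the strandedness of counting, the build and the treatment of multiply mapped reads are not given in the sources used here. Among the 49056 gene identifiers shared with GENCODE M21 (GRCm38), 44858 (91.4%) had the same start and end, and symbols came from that annotation. Columns of per-sample values left unused numbered 0.

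The counts of each age were fitted separately with edgeR 4.0.16 (R 4.3.3): filterByExpr, TMM scaling, glmQLFit and glmQLFTest, Benjamini-Hochberg adjustment over all genes tested, threshold 0.05. All 32 members passed the filter. The difference between ages came from a fit of all 10 libraries. Alternatives were DESeq2 1.42.0, limma 3.58.1 (voom), no filter, scaling on microglia genes, a replicate block, a fit of all 10 libraries, a fit without mitochondrially encoded genes, and leaving out each library. The script was tested on simulated data.

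Levels were planned as CPM with TMM over all 10 libraries but are given with TMM within each age, because the former moved the fold changes by -0.09 (P5) and 0.13 (9 months) log2. The members whose groups did not overlap were the same under both. Family shares are of counts per kilobase of deposited gene length. All members are named, with full statistics for those called and for the glucose carrier, hexokinase, phosphofructokinase and lactate dehydrogenase families; up to 4 genes with the smallest p are named from each other list. The members and lists were chosen with earlier results of these data known. Promoter windows are from RefSeq (GRCm38.p6).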

Additional observations from a re-analysis of the deposited data

Results flagged for a closer look

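Slc2a3, which encodes the carrier GLUT3, had a fold change between the subsets that differed between the ages by -3.54 on the log2 scale (edgeR adjusted p = 0.0274), lower at 9 months. The call was lost with the replicate block (edgeR adjusted p = 0.113), and its dependence on single libraries is given above. Age and the kit used at 9 months cannot be told apart.

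In every library Ldhb lay on one side at P5 and on the other at 9 months, lower in CD11c+ at P5 and higher at 9 months. The difference of the fold changes was 2.33 on the log2 scale and did not pass in edgeR (edgeR adjusted p = 0.0952), while DESeq2 called it (2.14, DESeq2 adjusted p = 0.000206). Neither limma-voom (limma-voom adjusted p = 0.0626) nor the replicate block (edgeR adjusted p = 0.16) called it. With scaling on microglia genes the 9-month value was -0.03 and the difference of the fold changes was 0.28 ± 0.30 (SE, edgeR adjusted p = 0.455).

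The shares of the 2 lactate dehydrogenase subunits also lay in opposite directions. From CD11c- to CD11c+ at 9 months the share of Ldhb was higher by 43.6 percentage points and that of Ldha changed by -43.6, while at P5 all 3 CD11c+ libraries had a lower Ldhb share than all 3 CD11c- libraries. This difference between ages was not tested.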

How the results depend on the processing

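At P5 DESeq2, limma-voom, no filter, scaling on microglia genes, the replicate block, the fit of all 10 libraries and the fit without mitochondrially encoded genes called 0 members; leaving out 1 library called 0 to 1, the 1 without CD11c+ replicate 2. At 9 months 22 members were called, with 33.0% of all genes. Alternatives that kept all 4 libraries of this age called 22 to 24, with 20.5% to 54.6% of all genes. The exception was the fit of all 10 libraries, which called 3, with 5.92% of all genes. For the difference between ages 1 member was called, with 1.86% of all genes. DESeq2 called 8, with 12.3% of all genes, and scaling on microglia genes 18, with 29.6%. Leaving out 1 P5 library called 0 to 18 members, the 18 without P5 CD11c+ replicate 2, with 19.1% of all genes. With the replicate block 0 were called for that difference, where Slc2a3 had -3.70 (edgeR adjusted p = 0.113), 22 at 9 months and 0 at P5. Same-numbered libraries deviated together with r = 0.417, -0.00618 and -0.418 at P5 and 0.119 for both pairs at 9 months. With 2 libraries a group, the 9-month value is the same for both pairs by construction. The labels do not say whether same-numbered libraries share an animal, and these correlations cannot decide it. At P5, not every library correlated best with its own number.

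At P5 the log2 fold changes of 13 of the 32 members were above 0, against 31 with scaling on microglia genes, 8 with the replicate block, and 10 each without the filter, with limma-voom and in the fit of all 10 libraries. At 9 months 13 were above 0, against 1 with scaling on microglia genes. Single P5 values are given here only for the 12 members whose P5 fold change is printed. Among these, scaling on microglia genes turned the direction for Slc2a1 (0.167), Slc2a3 (0.0262), Hk3 (0.661), Pfkl (0.388), Ldha (0.516) and Ankrd37 (0.125). At 9 months, over all 32, it turned for Slc2a1 (-0.908), Slc16a1 (-0.27), Hk2 (-0.816), Pfkl (-0.0199), Pfkm (-0.0404), Pfkfb3 (-0.467), Aldoc (-0.735), Eno2 (-0.188), Ldhb (-0.0329), Pdk1 (-0.35), Hif1a (-1.06) and Bnip3 (-0.916). Of those 12 at P5, Hk2 turned without the filter (-0.172), with the replicate block (-0.0814) and in the fit of all 10 libraries (-0.0244), and Pfkp without the filter (-0.0665) and in that fit (-0.0222). The cause was not tested. Leaving out 1 library at P5 turned 2 to 17 of the 32 members, the 17 without CD11c+ replicate 2, and of those 12 gave log2 fold changes of -0.154 to 0.581 for Hk1, -0.593 to 0.309 for Hk2, -0.312 to 0.283 for Hk3, -0.6 to 0.138 for Pfkl, -0.0842 to 0.345 for Pfkm, -0.309 to 0.34 for Pfkp and -0.437 to 0.197 for Ldha. At 9 months it gave -0.105 to 0.343 for Hif1a, -0.0322 to 0.626 for Bnip3 and -0.909 to 0.194 for Ankrd37. At both ages, no member that turned under any of these alternatives passed the test in the turned direction, other than Slc2a1, Hk2, Pfkfb3, Hif1a and Bnip3 at 9 months with scaling on microglia genes.

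With 2 or 3 libraries a group and 1 shallow library, differences at P5 under the spread with that library were not detectable here.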

Other observations

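Without P5 CD11c+ replicate 2, a few pathway genes outside the 32 passed at P5, when 5.06% of all genes were called higher and 4.42% lower. Of 33 other glycolysis, branch and pyruvate genes tested, 1 was higher and 1 lower. Of 30 other hypoxia response genes tested, 3 were higher and 0 lower. Slc16a7, which encodes the carrier MCT2 with high affinity for pyruvate and lactate, was higher in CD11c+ (log2 fold change 1.39 ± 0.13 SE, edgeR adjusted p = 0.00194), and Slc2a5 was lower (-1.23 ± 0.21, edgeR adjusted p = 0.0168). Of the other hypoxia response genes, Rbpj (1.59 ± 0.14, edgeR adjusted p = 0.00133), Cited2 (1.08 ± 0.16, edgeR adjusted p = 0.0121) and Tfrc (0.74 ± 0.15, edgeR adjusted p = 0.0315) were higher. None of these passed in edgeR with all 6 P5 libraries.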
